A study of Mus musculus with 4 samples.

Results

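Purinergic receptors and ectonucleotidases were followed as a set of 9 genes: the nucleotide receptors P2ry12, P2ry13 and P2ry6, the ATP-gated channels P2rx4 and P2rx7, the surface enzymes Entpd1 and Nt5e, and the adenosine receptors Adora1 and Adora2a. The members were picked by symbol, and each symbol matched 1 of the 46983 gene rows in the files. They were read across cell classes that were named from marker genes, and none of the 9 served as a marker or as a clustering feature. Their depth differed widely, from 66 UMIs (unique molecular identifiers, 1 per captured RNA molecule) for P2ry13 to 3074 for P2ry12 over all 7804 nuclei kept.

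The nuclei came from the brains of male C57Black/6 mice aged 3 months and were profiled by droplet-based 3' single-nucleus RNA sequencing. There were 4 groups with 1 library each. One was a sham control, and the others were taken 1, 3 and 7 days after the middle cerebral artery had been occluded permanently (MCAO), a stroke model without reperfusion. Each library pooled the nuclei of 3 forebrain hemispheres, so lesion and surrounding tissue were mixed and no group had a replicate. The labels' surgical protocol names intact cortex as control tissue while the design text names hemispheres, and striatal neurons were found in every library, sham control included. The control is labelled sham, while the paper describes its control as uninjured and refers to an earlier study for sham surgery. Whether the control mice had surgery is therefore not settled.

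Cells that are damaged or active release ATP and ADP, which act on P2X channels and P2Y receptors at the surface of neighbouring cells. Entpd1 (CD39) cuts ATP and ADP down to AMP, Nt5e (CD73) turns AMP into adenosine, and adenosine then acts on Adora1 (which inhibits adenylyl cyclase) and Adora2a (which stimulates it). In the brain P2ry12 is known as a receptor by which microglia sense injury, and Adora2a is known from striatal neurons of the indirect pathway.

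Positions are those of GRCm38, from a GENCODE annotation of that build. P2ry12 (ENSMUSG00000036353.13, chr3:59216272-59262871) and P2ry13 (ENSMUSG00000036362.2, chr3:59207892-59210882) are neighbours on the minus strand, and both lie wholly within Med12l, a gene of the plus strand at chr3:59005825-59318682. P2rx7 (ENSMUSG00000029468.17, chr5:122643911-122691432) and P2rx4 (ENSMUSG00000029470.15, chr5:122707544-122729738) are neighbours on the plus strand. P2ry6 (ENSMUSG00000048779.4) is at chr7:100937630-100974649 on the minus strand, Entpd1 (ENSMUSG00000048120.16) at chr19:40612366-40741602 and Nt5e (ENSMUSG00000032420.7) at chr9:88327197-88372092 on the plus strand, Adora1 (ENSMUSG00000042429.8) at chr1:134199223-134235431 on the minus strand and Adora2a (ENSMUSG00000020178.5) at chr10:75316877-75334784 on the plus strand. The files count a whole gene body, introns included, so the UMIs of a member can come from intronic RNA.

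For 7 of the 9 members RefSeq (GRCm38.p6) gave a promoter window, 300 bases long with 250 before and 50 after the start. The windows below are those that held a match among members with their highest levels in microglia-like nuclei (for P2rx7 the first of 2 starts), and 3 of these genes (P2ry12, P2rx7 and Entpd1) were lower at day 1 in those nuclei. Capitals mark GAGGAA and GGAAGT, the core letters of sites bound by PU.1 and other ETS factors, searched on both strands and printed on the gene's strand.

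P2ry12, chr3:59262936-59263235, minus strand: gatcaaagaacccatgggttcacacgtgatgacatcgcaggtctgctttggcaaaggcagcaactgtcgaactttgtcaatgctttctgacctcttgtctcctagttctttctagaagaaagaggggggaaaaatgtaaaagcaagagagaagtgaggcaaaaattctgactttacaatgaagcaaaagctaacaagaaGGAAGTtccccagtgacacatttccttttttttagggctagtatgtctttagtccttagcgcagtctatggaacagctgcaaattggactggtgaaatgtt

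P2ry13, chr3:59210833-59211132, minus strand: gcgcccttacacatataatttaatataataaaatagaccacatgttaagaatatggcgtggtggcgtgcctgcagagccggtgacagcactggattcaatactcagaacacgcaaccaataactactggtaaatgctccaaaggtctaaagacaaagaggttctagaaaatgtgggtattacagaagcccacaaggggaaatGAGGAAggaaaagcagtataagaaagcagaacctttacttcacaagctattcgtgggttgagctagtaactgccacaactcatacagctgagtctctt

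P2rx7, chr5:122643677-122643976, plus strand: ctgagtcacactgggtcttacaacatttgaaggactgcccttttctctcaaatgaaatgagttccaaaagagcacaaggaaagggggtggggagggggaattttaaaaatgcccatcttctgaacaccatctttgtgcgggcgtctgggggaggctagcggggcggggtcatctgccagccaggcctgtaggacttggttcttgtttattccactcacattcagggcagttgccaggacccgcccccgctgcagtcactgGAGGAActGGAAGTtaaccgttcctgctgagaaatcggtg

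Entpd1, second start, chr19:40659520-40659819, plus strand: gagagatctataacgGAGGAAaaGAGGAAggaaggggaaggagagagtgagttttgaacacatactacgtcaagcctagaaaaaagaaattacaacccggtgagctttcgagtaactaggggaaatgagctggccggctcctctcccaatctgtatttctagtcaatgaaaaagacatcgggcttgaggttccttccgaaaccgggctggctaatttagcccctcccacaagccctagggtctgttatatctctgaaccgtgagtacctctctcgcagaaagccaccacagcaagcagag

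P2ry12 held 1 GGAAGT and no GAGGAA, P2ry13 held 1 GAGGAA, P2rx7 held 1 of each at both starts, and the second Entpd1 start held 2 GAGGAA while the first held neither. The window of P2rx4, which is also highest in microglia-like nuclei, held neither, as did that of Nt5e, and the first Adora1 start held 1 GGAAGT. Of the 32851 promoter windows in the table, 28.3% held GAGGAA, 23.8% held GGAAGT and 8.65% held both, so matches of this kind are common and describe only these letters.

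Depth set what could be read. The libraries held 23285489 to 42963698 UMIs in all, and the nuclei kept numbered 2118 (sham control), 1017 (day 1), 3099 (day 3) and 1570 (day 7), with medians of 6345, 11024, 5412 and 6982.5 UMIs per nucleus. Only 9 cell barcodes were shared between libraries. The study's own breakdown of nuclei gives the day 3 and day 7 libraries the other way round in size, and the deposited labels were kept here, so this doubt touches every value given for days 3 and 7. Of 31 clusters 5 stayed unnamed, with 6.56% of nuclei. The microglia-like class held all 18 of its markers above the other nuclei, with none at 0.

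Levels are in CPM, which scales the UMIs of every class sum of a library to the same total, with an exact Poisson interval at the 95% level. Ratios between libraries carry an exact conditional binomial interval, and a ratio was called higher or lower when it reached 1.5-fold and its interval left out 1, among genes with at least 10 UMIs in both sums together and classes with at least 20 nuclei in both libraries. With 1 library per group these intervals cover counting error only, no p-value was computed, and no difference has a replicate check. Free RNA was read from barcodes of at most 100 UMIs, and the free level quoted below is the highest CPM that this RNA could add to a class.

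The members fell into separate places. P2ry12, P2ry13, P2ry6, P2rx4, P2rx7 and Entpd1 had their highest median level in microglia-like nuclei, Adora2a in striatal projection neuron-like nuclei, Nt5e in the 29 fibroblast-like nuclei of day 3 and then in striatal projection neuron-like nuclei, and Adora1 in oligodendrocyte-like nuclei. Microglia-like nuclei made up 4.92% of nuclei and 1.56% of their UMIs, but held 64.7% of the UMIs of P2ry6, 39.4% of P2ry13, 35.2% of Entpd1, 21.3% of P2rx7, 18.1% of P2ry12 and 9.19% of P2rx4. Striatal projection neuron-like nuclei held 16.8% of the UMIs of all genes, 78.5% of those of Adora2a and 43.0% of those of Nt5e.

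**Figure D1:**
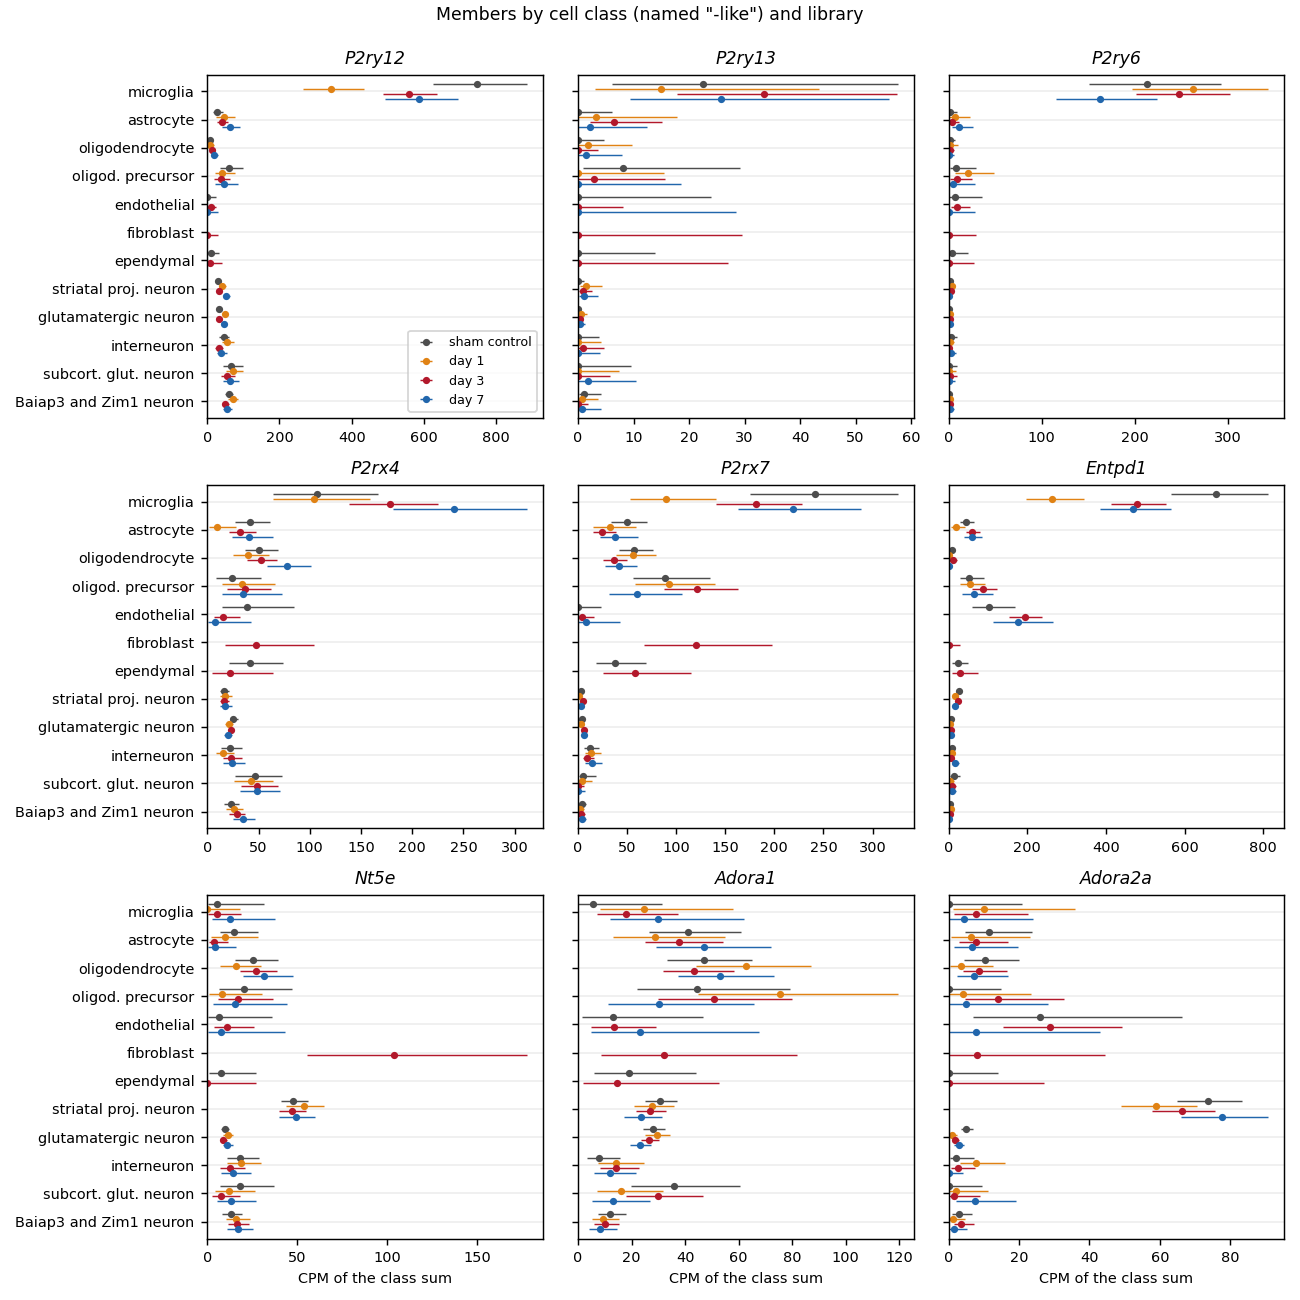
CPM of the class sum (horizontal axis, linear, a scale per gene) for each of the 9 members in 12 cell classes (vertical axis) and the 4 libraries (colours). Points are class sums with exact 95% Poisson intervals, classes under 20 nuclei in a library are left out, and P2ry12 in microglia-like nuclei stands at 342 to 748 CPM against at most 72.3 CPM in other classes.

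The sham library held 80 microglia-like nuclei, and the libraries of days 1, 3 and 7 held 37, 179 and 88. P2ry12, which senses ADP, stood at 748 CPM (626 to 886) in the sham library and at 342 (266 to 433), 558 (486 to 638) and 588 CPM (494 to 695) on days 1, 3 and 7, from 133, 69, 216 and 137 UMIs. The day 1 interval lay below the other 3. The day 1 ratio to sham control was 0.458 (0.337 to 0.616), called lower, while those of days 3 and 7, 0.746 (0.598 to 0.933) and 0.786 (0.615 to 1.01), did not reach the fold. Between libraries after injury, day 3 was above day 1 by 1.63 (1.24 to 2.17). The share of microglia-like nuclei with a P2ry12 UMI was 67.5%, 51.4%, 60.9% and 56.8%, although day 1 nuclei were deeper, at a median of 3400 UMIs, than those of the other libraries at 1667.5, 1699 and 1913.5.

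P2ry13, a second ADP receptor, was sparse, with 4, 3, 13 and 6 UMIs and 22.5, 14.9, 33.6 and 25.8 CPM in the 4 libraries. These intervals overlapped, and at this depth no difference was detectable, with a ratio of 1.49 at day 3 (0.461 to 6.29). P2ry6, a UDP receptor tied to phagocytosis, did not share the day 1 dip of P2ry12. The sham library had 214 CPM (151 to 293) and days 1, 3 and 7 had 263 (197 to 344), 248 (201 to 303) and 163 CPM (115 to 224). None of its ratios to sham control was called as measured, and day 7 was lower than day 3 by a ratio of 0.658 (0.439 to 0.967).

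The channel P2rx7, which opens at high ATP, began at 242 CPM (175 to 326) in the sham library, with 89.3 (52.9 to 141), 181 (141 to 229) and 219 CPM (163 to 288) on days 1, 3 and 7. It was lower at day 1 by a ratio of 0.369 (0.200 to 0.654) and higher at day 3 than at day 1 by 2.03 (1.19 to 3.61). The day 1 call was lost among nuclei over 2000 UMIs, at 0.587 (0.272 to 1.29), and after thinning each nucleus to 1000 UMIs, at 0.324 (0.0617 to 1.09). The channel P2rx4, which responds to lower ATP, went another way, with 107 CPM (64.3 to 167) in the sham library and 104 (64.5 to 159), 178 (139 to 226) and 240.4 CPM (182 to 312) on days 1, 3 and 7. Its day 7 interval lay above those of sham control and day 1. Its ratios to sham control for days 1, 3 and 7 were 0.975 (0.499 to 1.92), 1.67 (0.992 to 2.94) and 2.25 (1.32 to 4.01), the last called higher.

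Entpd1, the enzyme that removes extracellular ATP and ADP, stood at 680.3 CPM (564 to 813) in the sham library and at 263 (197 to 344), 478 (411 to 552) and 468 CPM (384 to 564) on days 1, 3 and 7. The day 1 level was the lowest and did not overlap the others. The day 1 ratio of 0.386 (0.274 to 0.538) was called lower, while those of days 3 and 7, 0.702 (0.556 to 0.891) and 0.688 (0.526 to 0.898), had intervals below 1 but missed the fold. Day 3 exceeded day 1 by 1.82 (1.33 to 2.52). The members that act after Entpd1 were not detectable above free RNA in these nuclei, since the interval of each value reached down to the free level. Nt5e had 0 to 12.9 CPM against free levels of 7.12 to 12 CPM, Adora1 had 5.62 to 30.0 against 26.4 to 37.5, and Adora2a had 0 to 9.92 against 16.9 to 33.0.

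**Figure D2:**
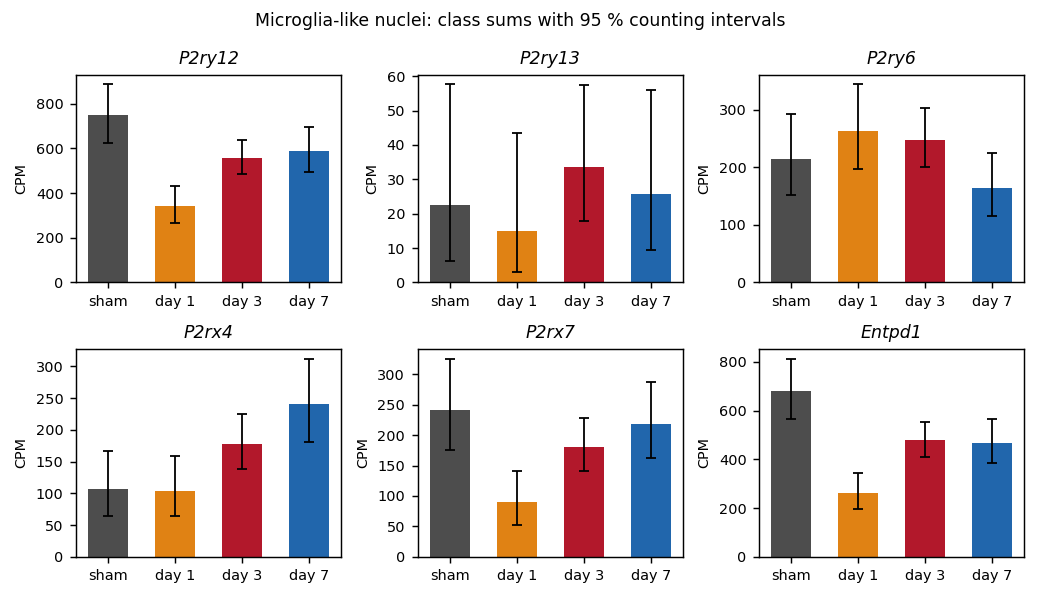
CPM (vertical axis, linear from 0) of the 6 members detected in microglia-like nuclei, by library (horizontal axis). Bars are class sums and lines exact 95% Poisson intervals; P2ry12, P2rx7 and Entpd1 dip at day 1, to 342, 89.3 and 263 CPM, P2rx4 is highest at day 7, and P2ry13 rests on 26 UMIs.

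At day 1, 5 of the 9 members reached the count minimum in microglia-like nuclei, none was called higher and 3 were called lower (P2rx7 with the exceptions just given), whereas 6.88% of the 7316 genes tested were higher and 6.67% were lower. The median log2 ratio of those 5 was -1.13 against 0.03 for all genes tested. At day 3, 6 members were tested and none was called, against 5.13% of all genes higher and 4.16% lower. At day 7, 6 were tested, 1 was higher (P2rx4) and none lower, against 4.7% and 4.06%. Day 3 against day 1 gave 4 of 7 members higher (P2ry12, P2rx4, P2rx7 and Entpd1) and none lower, against 7.73% higher and 7.72% lower. Day 7 against day 3 gave 1 of 7 lower (P2ry6) and none higher, against 4.98% higher and 4.86% lower.

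Other measures moved with the day 1 values. The 18 microglia markers of the class summed to 11953 CPM in the sham library and to 7765, 11749 and 10799 CPM on days 1, 3 and 7. Among 8 genes of resting microglia (such as Tmem119 and Cx3cr1), 5 were called lower on day 1 and 2 each on days 3 and 7. From a list of 8 reactive microglia genes, 2 of 4 tested were higher on day 1 and 6 of 6 on each later day. The shares of all genes called higher were 6.88%, 5.13% and 4.7%. On days 3 and 7 the median log2 ratio of the reactive genes was infinite. Some of them thus had no UMI in the sham library and could reach the count minimum only through the injured one. The paper names several of the listed genes (such as Spp1 and Gpnmb) for reactive microglia of the same libraries, so their calls are not an independent check. P2ry14, which neurons held at 105 to 268 CPM, was higher in microglia-like nuclei at day 1, at 164 CPM against 50.6 (sham), 20.7 (day 3) and 73.0 CPM (day 7), and these levels did not exceed the free level of 70.0 to 175 CPM. Summed over 10 genes of oligodendrocytes and neurons the sham level was 2766 CPM, days 1, 3 and 7 had 3248, 2328 and 2627 CPM, and the upper bound of free RNA in the class was 41.1% to 70.2% of its UMIs. With that free RNA taken off at its upper bound, the log2 ratios to sham control on days 1, 3 and 7 were -0.54, -0.75 and -0.57 for P2ry12, -0.72, -0.83 and -0.75 for Entpd1 and -0.80, -0.74 and -0.35 for P2rx7. P2ry12 then no longer reached 1.5-fold at day 1, and for P2ry12 and Entpd1 day 1 was no longer the lowest of the 3 days. P2ry6 at day 1 moved the other way, to a log2 ratio of 0.94, past 1.5-fold, and P2rx4 stood at 0.43, 0.55 and 1.11. The part of these measures in the result was not tested.

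Markers of macrophages at the brain's borders moved as well. Nuclei of the microglia-like class with at least 2 UMIs of border macrophage markers made up 13.8% in the sham library and 35.1%, 31.3% and 17.0% on days 1, 3 and 7. In the nuclei with fewer, P2ry12 stood at 715 CPM (sham), 357 (day 1), 711 (day 3) and 626 CPM (day 7). In the nuclei with more, the levels were 972 (609 to 1472), 323, 336 and 428 CPM, so that in the sham library they were the higher and after injury the lower of the 2 kinds, with intervals that overlapped on every day but day 3. The split used all UMIs of a nucleus and moves with depth, the nuclei with more having a median of 1983 UMIs in the sham library and of 4789 on day 1, and its part in the day 1 values was not tested. At day 3 P2ry12 was 336 CPM (252 to 439) in the nuclei with more border macrophage UMIs and 711 (606 to 829) in those with fewer, and the intervals did not overlap. Entpd1 followed the same order at day 3, with 311 CPM (230 to 411) against 593 (498 to 701), whereas in the sham library it had 884 (539.8 to 1365) against 651 (529.99 to 791). P2rx7 at day 3 had 190 (128 to 271) against 174 (125 to 237).

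Nuclei were also split by a UMI of the reactive genes (Spp1, Gpnmb, Lgals3, Igf1, Lpl, Abca1, Itgax and Cd63) after each was thinned to 1000 UMIs. Such nuclei made up 35% of the sham class and 48.6%, 68.7% and 68.2% on days 1, 3 and 7. Entpd1 was lower in nuclei with a reactive UMI, by a ratio of 0.666 over the 4 libraries (0.514 to 0.863) and of 0.511 within day 3 (0.341 to 0.767). P2rx4 was higher in them by 1.75 (1.01 to 3.14) over the 4 libraries, but within day 3 and within day 7 the ratios of 1.56 (0.653 to 4.29) and 2.45 (0.827 to 9.82) had intervals that included 1. P2ry12 gave 0.798 (0.623 to 1.02), P2rx7 0.710 (0.452 to 1.12) and P2ry6 1.19 (0.799 to 1.79), and these intervals included 1. Pooling adds nuclei of libraries whose shares differ, and within sham control the Entpd1 ratio was 1.19 (0.708 to 1.98).

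Outside microglia-like nuclei P2ry12 was low but above free RNA in several classes. The next highest classes were subcortical glutamatergic neuron-like nuclei, at 55.0 to 72.3 CPM over the 4 libraries, and a neuron class led by Baiap3 and Zim1, at 49.0 to 71.2 CPM. It ranged from 36.6 to 60.4 CPM in oligodendrocyte precursor-like, 26.4 to 62.7 in astrocyte-like, 32.0 to 55.2 in interneuron-like, 32.2 to 48.4 in glutamatergic neuron-like and 30.8 to 51.6 in striatal projection neuron-like nuclei. In glutamatergic neuron-like nuclei the free level was only 2.8 to 4.5 CPM. This class held 35.3% of all P2ry12 UMIs, below its share of 43.6% in the UMIs of all genes. P2ry12 lies within Med12l, which is on the other strand. In the annotation 21 exon records of Med12l fall within P2ry12 and none within P2ry13 or P2ry14, and no source names the strand setting of the counts. P2ry12, P2ry13 and P2ry14 held 3074, 66 and 9195 UMIs. Whether RNA of the Med12l locus adds to the counts of the genes within it was not tested. There were 1.17 to 2.15 UMIs of P2ry12 per UMI of Med12l in microglia-like nuclei and 0.142 to 0.353 in neuron-like, astrocyte-like, oligodendrocyte-like and precursor-like nuclei. Across 38 sums of a class and library without microglia, the log2 levels of P2ry12 and Med12l had a Pearson r of 0.832, and those of P2ry14, which lies within Med12l too, 0.846. These sums share libraries and depth, so the values only describe them.

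**Figure D3:**
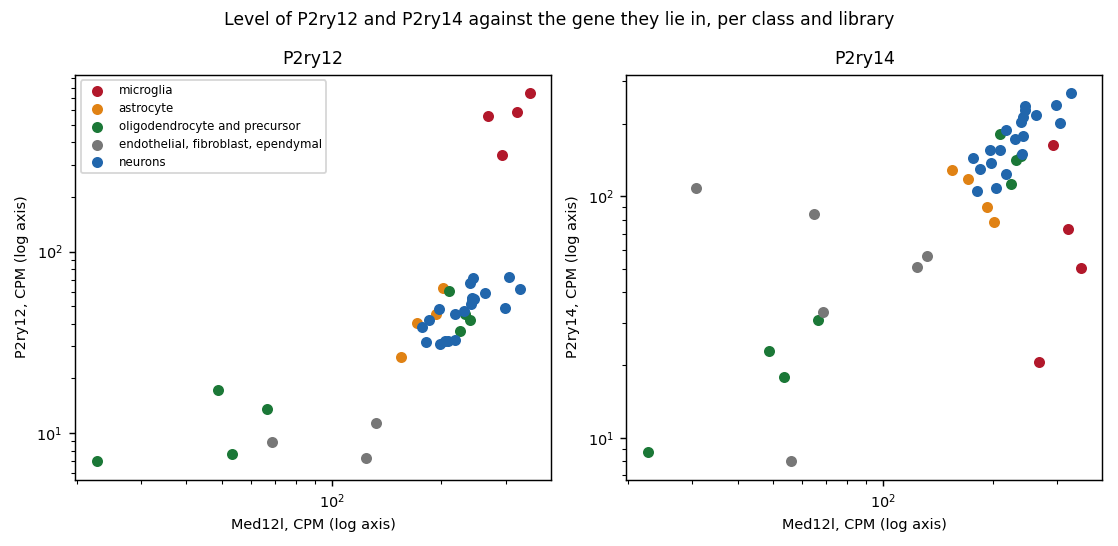
CPM of P2ry12 (left) and P2ry14 (right) on the vertical axis against CPM of Med12l on the horizontal axis, all on log axes, with 1 point per class and library coloured by class. Sums with no UMI of the receptor are left out. Microglia-like nuclei stand above the other points for P2ry12, at 1.17 to 2.15 UMIs per Med12l UMI, and do not for P2ry14.

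P2ry12 was higher at day 1 in glutamatergic neuron-like nuclei, at 48.4 CPM against 32.2 (ratio 1.50, 1.25 to 1.80), with 32.6 at day 3 and 47.1 at day 7. It was higher at day 7 in striatal projection neuron-like nuclei, at 51.6 CPM against 30.8 (1.67, 1.26 to 2.22), with 41.8 at day 1 and 31.8 at day 3, and in astrocyte-like nuclei, at 62.7 against 26.4 (2.38, 1.24 to 4.71), with 45.0 and 40.2. Microglia markers moved with it in astrocyte-like nuclei, where the 18 markers summed to 147 CPM (sham), 241 (day 1), 403 (day 3) and 571 CPM (day 7), with 1, 2, 0 and 0 of them at 0. Of 8 resting microglia genes 5 were tested there at day 7 and 4 were called higher, against 9.2% of all genes called in either direction. In striatal projection neuron-like nuclei the 18 markers summed to 97.2, 207, 209 and 121 CPM, with none at 0. Their part in these calls was not tested. Over the same comparisons Med12l itself had ratios of 0.941, 1.22 and 1.30, none of them called. The day 1 call in glutamatergic neuron-like nuclei sat at the fold limit and was lost under other scalings (log2 ratio 0.54), with doublets kept (0.58) and when libraries were merged without integration (0.45).

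P2rx7 outside microglia was highest in the oligodendrocyte lineage. Oligodendrocyte precursor-like nuclei stood at 88.6 CPM (sham), 92.3 (day 1), 121 (day 3) and 60.5 CPM (day 7), all above oligodendrocyte-like nuclei, which had 57.3, 55.9, 36.7 and 41.6 CPM. No ratio to sham control was called in either class. In astrocyte-like nuclei P2rx7 had 49.4 CPM in the sham library and 32.1, 24.6 and 38.1 CPM on days 1, 3 and 7, and the day 3 ratio was 0.498 (0.265 to 0.914), called lower. In glutamatergic neuron-like nuclei the levels were 3.60, 3.00, 6.18 and 6.09 CPM, and day 3 was called higher at 1.72 (1.05 to 2.89), from 59 UMIs against 24, a call lost when merged without integration (1.49, 0.926 to 2.44). Fibroblast-like nuclei reached 120 CPM at day 3, but all 15 of those UMIs came from 1 nucleus.

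P2rx4 was second highest in oligodendrocyte-like nuclei, with 50.9 CPM (sham), 40.2 (day 1), 52.1 (day 3) and 77.4 CPM (day 7) above a free level of 8.8 to 13.1. The day 7 ratio of 1.52 had an interval of 0.991 to 2.35 and was not called. In astrocyte-like nuclei the levels were 41.2, 9.64, 32.4 and 40.3 CPM. The day 1 value was called lower at 0.234 (0.0452 to 0.767), rests on 3 UMIs against 25 and lies below the free level of 20.0 CPM, so it is a value near background, and merged without integration it was 0.481 (0.202 to 1.04).

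Entpd1 outside microglia was highest in endothelial-like nuclei, where it is known to limit platelet activation. The sham library had 104 CPM (59.2 to 168) and days 3 and 7 had 193 (155 to 238) and 177 CPM (112 to 266), from 40, 75 and 21 nuclei, and the 6 nuclei of day 1 were too few to compare. Day 3 was called higher at 1.86 (1.09 to 3.40), and 17 of its 87 UMIs came from 1 nucleus, without which the ratio was 1.55 (0.894 to 2.87) and not called. With the top nucleus left out of both libraries it was 1.75 (0.977 to 3.36), not called either. The call was also lost with doublets kept (log2 ratio 0.67) and without integration (0.78). The 18 microglia markers summed there to 511 CPM (sham), 1014 (day 3) and 987 CPM (day 7), with 10, 2 and 4 of them at 0. Of 8 resting microglia genes only 2 were tested at day 3 and both were called higher, against 10.7% of all genes called in either direction. At least 1 of them had no UMI in the sham library and could reach the count minimum only through day 3. The part of microglia markers in the Entpd1 value was not tested, and P2ry12 held 4 UMIs on day 3 and none in the sham and day 7 libraries. Oligodendrocyte precursor-like nuclei had 52.4, 54.6, 87.2 and 65.6 CPM and astrocyte-like nuclei 44.5, 19.3, 59.6 and 58.2 CPM, with no call in either. In striatal projection neuron-like nuclei the sham level was 26.7 CPM (21.5 to 32.8), and days 1, 3 and 7 had 16.7 (11.6 to 23.4), 23.8 (18.9 to 29.6) and 15 CPM (10.1 to 21.5). Entpd1 was there called lower at day 1 (0.625, 0.409 to 0.937) and at day 7 (0.562, 0.359 to 0.858).

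Nt5e, which makes adenosine from AMP, was highest in fibroblast-like nuclei, at 104 CPM (55.4 to 178) in the 29 nuclei of day 3. The smaller fibroblast-like sums of sham control, day 1 and day 7, with 14, 3 and 16 nuclei, held 14, 7 and 5 UMIs. Among larger classes it was highest in striatal projection neuron-like nuclei, with 47.9 CPM (sham), 53.6 (day 1), 47.0 (day 3) and 49.1 CPM (day 7), all above the 15.7 to 31.5 CPM of oligodendrocyte-like nuclei. The ratios to sham control in striatal projection neuron-like nuclei were 1.12 (0.870 to 1.44), 0.982 (0.784 to 1.23) and 1.03 (0.790 to 1.33), narrow intervals around 1. In astrocyte-like nuclei Nt5e was near free RNA after injury, with 3.89 to 9.64 CPM against free levels of 6.9 to 7.7.

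Adora1 was spread over many classes. Its median level was highest in oligodendrocyte-like nuclei, with 47.1 CPM (sham), 62.9 (day 1), 43.4 (day 3) and 53.0 CPM (day 7), followed by oligodendrocyte precursor-like nuclei with 44.3, 75.6, 50.6 and 30.3 and astrocyte-like nuclei with 41.2, 28.9, 37.6 and 47.0. These ranges overlapped, so their order is not settled, and free RNA could add up to 23.3 CPM in oligodendrocyte-like and up to 27.2 in astrocyte-like nuclei. Glutamatergic neuron-like nuclei had 28.2, 29.5, 26.7 and 23.2 CPM against free levels of 4.1 to 6.2. They held 45.5% of all Adora1 UMIs, near their share of 43.6% in the UMIs of all genes. Within that class the clusters differed. Cluster levels over all libraries ran from 13.2 CPM in a cluster led by Nr4a2, 13.7 in an upper layer-like and 23.2 in a cortical-like cluster to 39.6 in a deep layer-like, 48.2 in a dentate granule-like and 49.4 in a Rorb-led cluster. The deep layer-like cluster ranged from 28.1 to 46.1 CPM over the 4 libraries and the upper layer-like cluster from 11.6 to 16.2, without overlap. Adora1 was called once in any class, lower at day 7 in subcortical glutamatergic neuron-like nuclei (0.364, 0.124 to 0.965), from 7 UMIs against 14, and under both other scalings the ratio stayed near (0.382 and 0.378) while its interval reached 1.

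Adora2a stood apart in striatal projection neuron-like nuclei, with 73.7 CPM (64.9 to 83.4) in the sham library and 59.0 (48.9 to 70.5), 66.3 (57.9 to 75.6) and 77.6 CPM (65.9 to 90.9) on days 1, 3 and 7. The next class, endothelial-like nuclei, reached 28.8 CPM at day 3 from 13 UMIs against a free level of 12 CPM. In striatal projection neuron-like nuclei the ratios to sham control were 0.80 (0.638 to 0.999), 0.90 (0.748 to 1.08) and 1.05 (0.857 to 1.29) for days 1, 3 and 7, and none was called. In glutamatergic neuron-like nuclei Adora2a was called lower at day 1 (0.214, 0.0734 to 0.518) and day 3 (0.381, 0.202 to 0.696), but its levels of 4.95 CPM (sham), 1.06 (day 1), 1.88 (day 3) and 2.80 CPM (day 7) were all at or below the free level of 2.5 to 5.7, and are read as background.

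Striatal projection neurons come in 2 kinds, of the indirect pathway with the dopamine receptor Drd2 and of the direct pathway with Drd1. Nuclei with UMIs of Drd2 and none of Drd1 numbered 131, 52, 132 and 82 in the 4 libraries, and those with Drd1 and no Drd2 numbered 103, 52, 109 and 65. The nuclei with both (14, 6, 20 and 4) or neither (104, 23, 131 and 47) were left out. Adora2a was high in the Drd2 nuclei, at 160.02 CPM (sham), 119.6 (day 1), 151 (day 3) and 161 CPM (day 7), against 1.84, 0, 0.956 and 5.46 CPM in the Drd1 nuclei. The groups were far apart in every library. The ratio was 86.7 (23.7 to 721) in the sham library, 158 (28.0 to 6269) on day 3 and 29.5 (11.2 to 109.7) on day 7. On day 1 the Drd1 nuclei held no UMI, and with a floor of 3 counts the Drd2 nuclei were at least 33.8-fold higher, while the exact interval began at 27.0. When the nuclei were split by marker lists of both kinds instead, the ratios were smaller, at 17.4 (sham), 12.5 (day 1), 40.6 (day 3) and 21.7 (day 7). In the sham library 72.5% of the Drd2 nuclei and 1.94% of the Drd1 nuclei held an Adora2a UMI, at median depths of 8398 and 8675 UMIs.

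Nt5e followed the same division, at 90.8 CPM (sham), 81.4 (day 1), 90.9 (day 3) and 87.6 CPM (day 7) in the Drd2 nuclei, against 12.9, 23.6, 16.2 and 13.6 CPM in the Drd1 nuclei. The ratios were 7.03 (4.02 to 13.3), 3.45 (2.07 to 6.01), 5.59 (3.34 to 9.95) and 6.42 (3.30 to 14). The enzyme that makes adenosine and the receptor Adora2a were thus both more abundant in the same kind of nucleus in all 4 libraries. Adora1 gave no such contrast, with ratios of 1.24 to 1.37 and intervals that reached from 0.660 to 2.76. Entpd1 had ratios of 0.764, 1.52, 0.299 and 1.12, and only that of day 3 (0.141 to 0.590) left out 1, with 10.0 CPM in the Drd2 nuclei and 33.5 in the Drd1 nuclei.

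**Figure D4:**
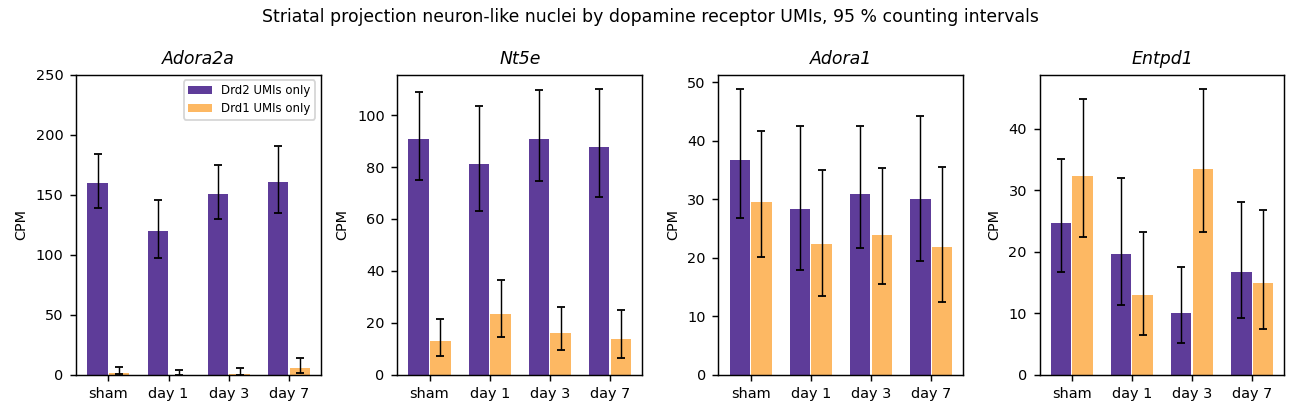
CPM (vertical axis, linear from 0) of Adora2a, Nt5e, Adora1 and Entpd1 by library (horizontal axis) in striatal projection neuron-like nuclei with Drd2 UMIs only and with Drd1 UMIs only. Bars are sums and lines exact 95% Poisson intervals; Adora2a and Nt5e are higher in the Drd2 nuclei of every library, at 119.6 to 161 and 81.4 to 90.9 CPM.

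Outside microglia few members were called. In astrocyte-like nuclei 1 of 6 members tested was called at day 1, 1 of 7 at day 3 and 1 of 7 at day 7, against 9.2%, 9.48% and 9.2% of all genes in either direction. In striatal projection neuron-like nuclei 1 of 8, 0 of 8 and 2 of 7 were called against 8.09%, 5.55% and 6.63%. In glutamatergic neuron-like nuclei 2 of 8, 2 of 8 and 0 of 8 were called against 8.63%, 5.43% and 8.73%, and Adora2a gave 1 call on each of these days, at levels read as background. Endothelial-like nuclei gave 1 of 3 at day 3 and 0 of 1 at day 7, against 10.7% and 8.66%. Subcortical glutamatergic neuron-like nuclei gave 0 of 4, 0 of 5 and 1 of 4, against 8.49%, 7.33% and 7.61%.

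No member was called in the remaining classes under the main settings. The all-gene shares were 8.9%, 7.95% and 8.59% at day 1, day 3 and day 7 in oligodendrocyte-like nuclei, where 6, 7 and 6 members were tested, and 8.36%, 7.19% and 6.34% in oligodendrocyte precursor-like nuclei, where 5, 6 and 5 were tested. They were 6.49%, 6.29% and 7.19% in interneuron-like nuclei with 6, 6 and 6 tested, 5.66%, 5.61% and 7.25% in a neuron class led by Baiap3 and Zim1 with 6, 7 and 5 tested, and 15.4% at day 3 in ependymal-like nuclei with 3 tested. Of all comparisons with sham control, that of day 1 in microglia-like nuclei had the most members called.

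**Figure D5:**
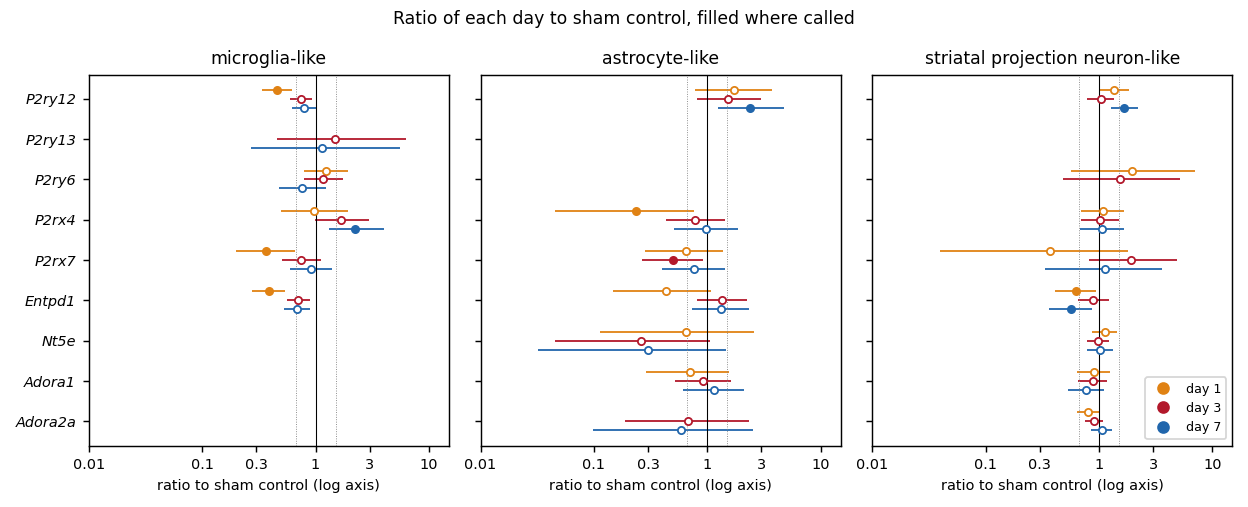
Ratio of each day to sham control (horizontal log axis) for the members (vertical axis) in microglia-like, astrocyte-like and striatal projection neuron-like nuclei, with exact 95% intervals; filled points were called, dotted lines mark 1.5-fold in either direction, and members under the count minimum or with a sum of 0 are left out. The day 1 points of P2ry12, P2rx7 and Entpd1 in microglia-like nuclei lie at 0.458, 0.369 and 0.386.

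Another 39 genes of nucleotide and adenosine handling were read beside the members, and few of them were detected in microglia-like nuclei. Of these, 7 were tested there at day 1, 8 at day 3 and 8 at day 7, with 1, 2 and 0 called higher and none lower, where 6.88%, 5.13% and 4.7% of all genes were higher. The call at day 1 was the P2ry14 value given above, 12 of whose 33 UMIs came from 1 nucleus, and those of day 3 were Enpp1, a nucleotide pyrophosphatase (56.8 against 16.9 CPM, 3.37, 1.01 to 17.6), and Adk, the kinase that clears adenosine inside cells (82.7 against 33.7 CPM, 2.45, 1.01 to 7.17). By its median over the libraries the highest of the list in this class was Slc29a3, a nucleoside transporter of lysosomes, at 89.3 to 121 CPM. The sham value of Adk lay below its free level of 54.9 CPM, and this call is near background.

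Adk was highest in astrocyte-like nuclei, at 556 to 650 CPM over the 4 libraries, with no call. In oligodendrocyte-like nuclei it stood at 238 CPM in sham control and at 150.3, 148 and 152 CPM after injury, lower on all 3 days (0.631, 0.483 to 0.819, then 0.620, 0.497 to 0.772, then 0.638, 0.498 to 0.814). In endothelial-like nuclei Adk was lower at day 7 (0.505, 0.250 to 0.970). Enpp2 (autotaxin), related to the nucleotide pyrophosphatases but known for making lysophosphatidic acid, reached 1118 to 1339 CPM in oligodendrocyte-like nuclei and was not called there. In the few ependymal-like nuclei it was 1622 CPM at day 3 against 4098 in sham control (0.396, 0.341 to 0.458). The cluster also held markers of choroid plexus, where Enpp2 is abundant, and all 9 of them were detected, summing to 11919 CPM in the sham library and to 1636, 3384 and 9967 CPM on days 1, 3 and 7. Of the Enpp2 UMIs there, 1084 of 1086 in the sham library and 221 of 222 on day 3 lay in nuclei with at least 3 UMIs of those markers, so the value moved with choroid plexus markers and their part in it was not tested. It was lower on all 3 days in subcortical glutamatergic neuron-like nuclei (0.359, 0.306 and 0.213), lower in interneuron-like nuclei at day 3 (0.591) and day 7 (0.457), and called higher in striatal projection neuron-like nuclei at day 1 (1.65), at 38.8 against 23.5 CPM, values at or below the free level of 38.8 and 32.0 CPM. In subcortical glutamatergic neuron-like nuclei the day 7 level of 26.2 CPM also did not exceed its free level of 26.1 by more than counting error. The day 3 level of 37.7 CPM there was near its free level of 28.1.

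Gpr17, a receptor of the oligodendrocyte lineage, stood in precursor-like nuclei at 165 CPM in sham control and was lower at day 1, at 79.7 CPM (0.483, 0.265 to 0.851), and at day 3, at 78.8 CPM (0.477, 0.284 to 0.790). P2ry14, which shares the Med12l locus with P2ry12, was lower at day 3 in precursor-like (0.621) and interneuron-like nuclei (0.576). It was also called lower in endothelial-like nuclei at day 3 (33.3 against 84.1 CPM) and in astrocyte-like nuclei at day 7 (78.4 against 129 CPM), where the lower value lay below the free level of 49.8 and 109.8 CPM and is read as background. Free P2ry14 itself stood at 265 CPM in the sham library and 170.2 CPM on day 3. Alpl, a phosphatase of vessel walls, was lower in endothelial-like nuclei at day 3 (0.211, 0.0758 to 0.549). The transporter Slc29a3 was higher in astrocyte-like nuclei at day 1 (3.03) and day 3 (2.45). Microglia-like nuclei held it at 89.3 to 121 CPM. The 18 microglia markers in astrocyte-like nuclei summed to 147 CPM (sham), 241 (day 1) and 403 CPM (day 3), and their part in these calls was not tested. Entpd5, an enzyme of the endoplasmic reticulum, was higher in oligodendrocyte-like nuclei at day 7 (61.6 against 33.1 CPM, 1.86), and Entpd6 in interneuron-like nuclei at day 7 (53.7 against 28.1 CPM, 1.91). The remaining calls had at most 33.6 CPM in either library. Higher were Slc29a4 in the Baiap3 and Zim1 neurons at day 1, Slc29a4, Entpd3 and Slc29a3 in glutamatergic neuron-like nuclei at day 7, Entpd7 in astrocyte-like nuclei at day 7, and Slc17a9 at day 1, Slc29a3 at day 3 and Gpr17 at day 7 in striatal projection neuron-like nuclei. Lower were Entpd7 at days 3 and 7 and Slc29a3 at day 3 in the Baiap3 and Zim1 neurons, and Panx1 at day 1 and Slc29a2 at day 3 in striatal projection neuron-like nuclei, where Slc29a2 at day 3 and Gpr17 in sham control lay below the free level.

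Genes with the most similar pattern were sought over 36 sums (9 classes in 4 libraries) by the Pearson r of log2(CPM + 1) among 16488 genes. Nearest to P2ry12 were Fam49b (0.923), Lyn (0.923) and Ccdc93 (0.906), to P2ry13 Pld4 (0.914), Cd33 (0.894) and AU020206 (0.893), and to P2ry6 Slco2b1 (0.952), Havcr2 (0.949) and Stab1 (0.947). P2rx4 was nearest to Cd180 (0.901), Snx29 (0.890) and Lats1 (0.884), P2rx7 to Elf1 (0.940), Agmo (0.904) and Pld1 (0.903), and Entpd1 to Tec (0.916), Il15 (0.892) and Zfp710 (0.889). Those of the other members were weaker. Nt5e was nearest to Lrrc1 (0.770), Adcy5 (0.738) and Thsd7a (0.727), Adora1 to Sox8 (0.819), Psd3 (0.778) and Ptn (0.767), and Adora2a to RP23-15K8.1 (0.776), Ppp1r2 (0.754) and Wfs1 (0.753). The sums share libraries, so these values are a description of pattern only.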

How the data were processed

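The authors sequenced 10x 3' libraries of nuclei and mapped reads with STAR 2.7.3a in its single-cell mode to GRCm38 (GENCODE vM8, exons and introns). They collapsed UMIs and filtered UMIs that occurred with more than 1 gene (setting MultiGeneUMI). What they deposited are UMI counts per gene and barcode, without normalization, for 46983 genes and every barcode; the strand used was not stated. The files hold no columns of the authors' own comparisons. Groups came from the labels.

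Nuclei were called after emptyDrops, re-written here (background from barcodes of at most 1000 UMIs, 10000 draws, false discovery rate 0.001). Scrublet (scanpy 1.11.5) called only 29 of 7950 nuclei doublets by itself, too few to have worked, so the highest-scoring share expected from loading (0.8% per 1000 nuclei) was removed, 146 nuclei. Clustering used Seurat 5.3.0 in R 4.3.3 (sctransform 0.4.2, anchor integration, 30 principal components, resolution 0.8) on 2983 of 3000 variable genes, leaving out the members, the 39 pathway genes and the reactive genes. Clusters were named "-like" from 27 marker sets (243 of 246 markers found). A name required at least 3 detected markers and a lead of 0.5 in log2 fold over the next set, and names may differ from the study's.

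UMIs were summed per class and library. Sums, ratios and shares of nuclei carry exact Poisson, conditional binomial and Clopper-Pearson intervals (95%). UMIs mark molecules, but these intervals cover counting error only. A sum of 0 gave a lower bound at 3 counts. Only the call rule was tested on simulated data, with Poisson sums for the microglia-like and striatal projection neuron-like classes. Those sums held no variation between nuclei or animals. All 9 members are named; pathway genes are named where called or among the 5 highest in a class, and for each member the 3 most similar genes with at least 50 UMIs. The members and all lists were chosen with earlier results of these data known. The alternatives tried were edgeR 4.0.16 TMM factors, median-of-ratios factors, thinning to 1000 UMIs, a minimum of 30 UMIs per gene, nuclei over 2000 UMIs, doublets kept, merging without integration, exchanged day 3 and day 7 labels, per-nucleus means, subtraction of free RNA, the top nucleus left out and stricter microglia.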

Additional observations from a re-analysis of the deposited data

Results flagged for a closer look

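Ratios that ran in opposite directions in different cell classes are listed here; each class is a sum within the same pair of libraries, the difference between classes was not tested, and there is 1 library per group. P2ry12 at day 1 was lower in microglia-like nuclei, at 0.458 of sham control (0.337 to 0.616), and higher in glutamatergic neuron-like nuclei, at 1.50 (1.25 to 1.80), a call that was lost under other scalings (log2 ratio 0.54) and for which Med12l, the gene around it, had a ratio of 0.941. P2rx7 at day 3 was lower in astrocyte-like nuclei, at 0.498 (0.265 to 0.914), and higher in glutamatergic neuron-like nuclei, at 1.72 (1.05 to 2.89), where it rested on 59 UMIs against 24 and was not called when libraries were merged without integration.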

How the results depend on the processing

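Of 1737 values of 175 member ratios under 13 alternatives, 1672 stayed within counting error, 62 moved and 3 reversed. Alternatives also added calls that the main settings did not give. These numbered 5 with TMM, 4 with median-of-ratios factors, 5 with doublets kept and 11 when merged without integration. The reversals came with thinning to 1000 UMIs, which leaves few UMIs: log2 ratios of -0.032 for Entpd1 in endothelial-like nuclei at day 3, -0.40 for P2rx7 and 0.28 for Adora2a in glutamatergic neuron-like nuclei at day 3. Members called over all classes numbered 7 at day 1, 4 at day 3 and 5 at day 7, and 3, 0 and 2 after thinning; day 7 gave 8 with TMM, 8 with median-of-ratios factors and 9 when merged without integration. In microglia-like nuclei the members called were 0 at day 3, and 1 with TMM (2 over 2000 UMIs, 1 merged, 1 with labels exchanged, 1 at most 5000 UMIs per nucleus). At day 7 there was 1, and 2 over 2000 UMIs, 2 merged and 0 with labels exchanged. The genes called in microglia-like nuclei numbered 991 at day 1 (258 thinned, 656 with a minimum of 30 UMIs), 824 at day 3 (385 thinned) and 664 at day 7 (278 thinned, 418 with the minimum). Over all classes 8281, 9400 and 8297 genes were called, and 2248, 2975 and 2554 after thinning.

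The alternatives for 5000 UMIs, border macrophage UMIs, choroid plexus UMIs, striatal marker lists and the 1 endothelial-like nucleus left out for Entpd1 were chosen after seeing the data. With striatal nuclei split by marker lists in place of Drd1 and Drd2, the ratios of Adora2a were 17.4 in sham control and 12.5, 40.6 and 21.7 on days 1, 3 and 7. A split by cluster names was not run, because the striatal clusters mixed both kinds. In microglia-like nuclei P2ry12 and Entpd1 at day 1 remained called lower under each alternative that allowed a call. Subtraction of free RNA allowed none, and there P2ry12 (log2 ratio -0.54) no longer reached 1.5-fold while Entpd1 did (-0.72). P2rx7 was not called when thinned or over 2000 UMIs (log2 ratio -0.77). With labels exchanged none of the 9 calls of days 3 and 7 was made on the same day again, P2rx4 in microglia-like nuclei at day 7 included (0.74). No paired analysis was possible because each group held 1 library. Members of few UMIs, such as P2ry13, were limited by depth.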

Other observations

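A cluster of 30 nuclei (8 from the sham library and 7, 9 and 6 from those of days 1, 3 and 7) held markers of both microglia and oligodendrocytes and was left unnamed. Summed over the libraries, it stood at 450.4 CPM for P2ry12 (58 UMIs), 303 for Entpd1 (39 UMIs), 140 for P2rx4 (18 UMIs), 132 for P2rx7 (17 UMIs) and 77.7 for P2ry6 (10 UMIs), with 1 UMI of Adora1 and none of Adora2a. These nuclei are in none of the class values of the report.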
